A study of Gallus gallus with 2 samples.

Results

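CTCF peaks that were listed at both ages in chicken red blood cells, but whose place in the order of peak scores shifted strongly between 5 and 10 days, are described here. A peak of the 5 day list was paired with a peak of the 10 day list where the 2 overlapped by at least 1 bp and each was the nearest to the other by start. Unplaced and random sequence, the E linkage groups and mitochondrial DNA were left out. The 2832 resulting pairs were ranked by score at each age, and 710 pairs were selected on a difference of more than 30 percentile points between those ranks. Of these, 351 ranked higher at 10 days and 359 ranked higher at 5 days, while 2122 pairs differed by 30 points or less.

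The study mapped CTCF by chromatin immunoprecipitation with a commercial antibody and sequencing of the recovered DNA, at 2 stages of development. It has 1 library labelled 5 day old and 1 labelled 10 day old, both Gallus gallus red blood cells, with no genotype or treatment that differs between them in the labels. The labels do not say whether age counts from before or after hatching, nor how many animals were pooled or their sex. Their culture text describes purified mononuclear blood cells stimulated with PMA and Io, which is not a description of red cells, and peak lists hold no expression values with which to check the cell type.

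CTCF recognises specific DNA sequences through its zinc fingers. It blocks enhancers at insulators and, with cohesin, halts loop extrusion at the borders of chromatin domains. The chicken beta-globin insulator, active in red blood cells, is a classic site at which the blocking of enhancers was worked out. Bird red cells keep their nucleus, and primitive red cells are replaced by definitive ones as the embryo develops. Chicken chromosomes range from large macrochromosomes to small, gene-dense microchromosomes, and the sex chromosomes are Z and W, with females carrying a W.

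Each list gives 1 whole-number score per peak, whose scale is not given in the sources used here. The 5 day list held 5830 peaks, of which 5120 lay on the chromosomes used, and the 10 day list 21358, of which 20211 did. Read depth is unknown. A percentile rank places a score among the 2832 pairs of the same age, so it does not depend on the scale, but it says only how a peak stood relative to the other paired peaks of its own library. With 1 library per age there is no replicate, so the rank shift that repeat libraries of the same age would show was not measured, and no test compares the ages. Over all pairs the 2 scores had a Spearman rank correlation of 0.57, a description over peaks that share 2 libraries. Intervals are exact Clopper-Pearson 95% intervals. They cover counting error only and treat peaks as independent, which close peaks are not.

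Shifts in the 2 directions were about equally frequent, at 12.4% of all pairs towards 10 days and 12.7% towards 5 days. These shares follow from the limit of 30 points, their balance follows from ranking the same pairs at both ages, and they are given as the background for what follows. Ranked among every peak of each list instead, 823 pairs ranked higher at 10 days and 112 higher at 5 days. Among the pairs ranked higher at 10 days, the median score was 21 at 5 days (interquartile range 16 to 27) and 61 at 10 days (46 to 81). Among those ranked higher at 5 days, the medians were 47 (36.5 to 57.5) at 5 days and 29 (24 to 35) at 10 days. In all pairs the medians were 32 and 42. The difference exceeded 50 points in 96 pairs of the first kind and 115 of the second. These scores chose the pairs, so they are a description.

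**Figure D1:**
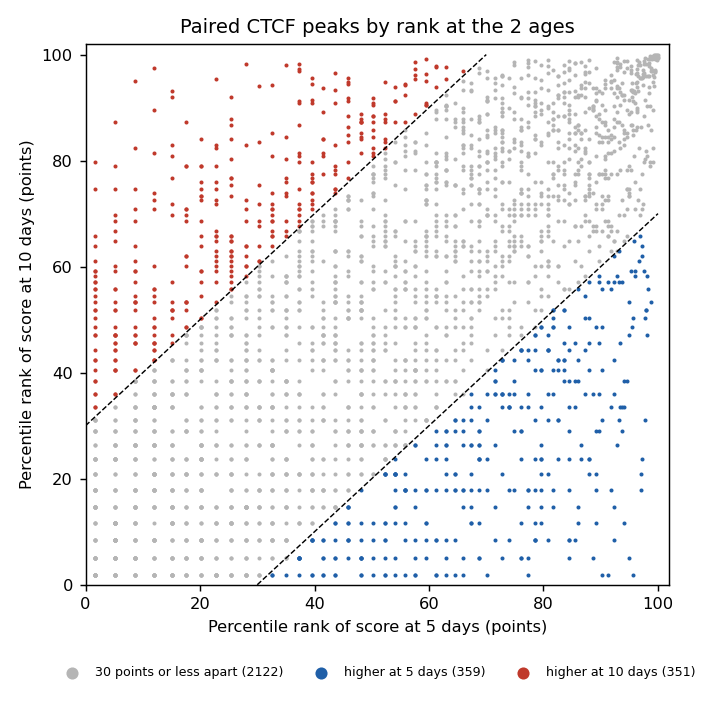
Percentile rank of each paired peak at 5 days (horizontal) and at 10 days (vertical), in points, 1 dot per pair. Dashed lines mark a difference of 30 points; the 351 red pairs rank higher at 10 days, the 359 blue pairs rank higher at 5 days, and the 2122 grey pairs lie between.

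Peaks at the very top of both lists could not take part, since a shift of more than 30 points needs a mean rank between 15 and 85. Tied scores set the grain of the scale: the largest block of equal scores held 106 pairs at 5 days (score 14), or 3.74 points, and 101 pairs at 10 days (score 24), or 3.57 points. At the limit itself the pairs differed little. Just inside it, 2 pairs on chromosome 8 at 19590695 to 19591093 and chromosome 15 at 11863449 to 11863847 scored 19 at 5 days and 42 at 10 days, a difference of 30.1 points. Just outside it, a pair on chromosome 1 at 172955394 to 172955792 scored 35 and 85, a difference of 29.98 points, and the next, on chromosome 2 at 13105220 to 13105618, scored 15 and 35, a difference of 29.8 points. In the other direction, pairs on chromosome 10 at 1092690 to 1093088 and chromosome 27 at 1303583 to 1303981 scored 54 and 43 and fell just inside, with a difference of -30.01 points (10 day minus 5 day). Pairs on chromosome 8 at 16440044 to 16440442 and chromosome 10 at 21810473 to 21810871 scored 25 and 23 and fell just outside, with -29.9 points.

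The largest shifts towards 10 days were peaks ranked low among the pairs at 5 days and high at 10 days. Positions are those of the 5 day peak, in the coordinates of the files, whose build is not given in the sources used here. The pair on chromosome 5 at 57494657 to 57495055 scored 15 at 5 days and 114 at 10 days, 86.4 points apart, but its 2 peaks overlapped by only 38 bp and another pair started 809 bp away. Near the start of chromosome 4, at 3650 to 4048, the identical position scored 16 and then 144, a shift of 85.5 points. On chromosome 11 at 749576 to 749974 the scores were 14 and 88 (82.2 points).

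The next 5 shifts in size were between 73.8 and 78.1 points. On chromosome 25 at 705878 to 706276 the scores were 17 and 105, with another pair that ranked higher at 10 days 512 bp away. On Z at 11688492 to 11688890 they were 13, the lowest score in the 5 day list, and 73. The chromosome 4 pair at 19307097 to 19307495 scored 16 and 93. On chromosome 1 at 197716535 to 197716933 the scores were 17 and 101, with another pair 451 bp away. On chromosome 3 at 13129755 to 13130153 they were 14 and 72, and a further pair that ranked higher at 10 days started 381 bp away. Of these 8 pairs, 4 had another pair within 10 kb, against 36.8% of all pairs ranked higher at 10 days.

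The largest shifts towards 5 days were peaks ranked high among the pairs at 5 days and low at 10 days. On chromosome 3 at 99832749 to 99833147 the score was 80 at 5 days and 22, the lowest of the 10 day list, at 10 days, a difference of -93.9 points. This was the largest shift in either direction. On chromosome 5 at 57223825 to 57224223 the scores were 77 and 23 (-89.8 points). On chromosome 14 at 4177734 to 4178132 they were 68 and 22 (-89.5 points), and on chromosome 2 at 34247928 to 34248326 they were 66 and 22 (-88.5 points).

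The remaining 4 of the 8 largest were on chromosome 8 at 14280816 to 14281214 (scores 70 and 24), chromosome 12 at 6872986 to 6873384 (63 and 23), chromosome 1 at 39933136 to 39933534 (75 and 25) and chromosome 2 at 41631193 to 41631591 (57 and 23). None of the 8 had another pair within 10 kb. The same held for 86.9% of all pairs ranked higher at 5 days and for 80.2% of all pairs. The closest to any of the 8, for the chromosome 12 pair, started 16237 bp away.

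The strongest peaks of the 2 kinds were also ordered by score in place of shift. The highest 10 day score among pairs ranked higher at 10 days was 289, on chromosome 1 at 104454970 to 104455368, where the 5 day peak scored 37. It stood at the edge of a group of 25 close pairs. The next were on chromosome 4 at 25990905 to 25991303 (36 at 5 days and 193 at 10 days), on chromosome 5 at 6429500 to 6429898 (22 and 171), and on chromosome 25 at 688272 to 688670 (26 and 170) and 706390 to 706788 (25 and 162). Of these 5, only the chromosome 5 pair at 6429500 had no other pair within 10 kb, against 63.2% of all pairs ranked higher at 10 days. The 2 on chromosome 25 lay in 1 stretch of 32616 bp.

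Among pairs ranked higher at 5 days the highest 5 day score was 122, on chromosome 5 at 38588230 to 38588628, where the 10 day peak scored 44. It was followed by chromosome 1 at 124135318 to 124135716 (103 and 46), Z at 34283613 to 34284011 (100 and 40), chromosome 3 at 4166907 to 4167305 (99 and 48) and chromosome 18 at 9821431 to 9821829 (98 and 43). These peaks fell from the top of the 5 day order to between the 47.0 and the 58.2 percentile at 10 days. None had another pair within 10 kb, and 86.9% of all pairs ranked higher at 5 days had none either. Scores also chose the pairs, so these 2 sets of 5 are a description.

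Close spacing set the 2 directions apart across all members. Position was used to form the pairs, but not to choose which of them shifted. Another pair started within 10 kb of 129 of the 351 pairs ranked higher at 10 days (36.8%, 95% interval 31.7 to 42.0), of 47 of the 359 ranked higher at 5 days (13.1%, 9.78 to 17.03) and of 385 of the 2122 that shifted by 30 points or less (18.1%, 16.5 to 19.9). Within 1 kb the shares were 9.40% (6.56 to 12.9), 2.51% (1.15 to 4.71) and 3.72% (2.96 to 4.62). At 100 kb the difference was gone, with 70.1%, 68.8% and 66.0%. The median distance to the nearest pair was 33332 bp for pairs ranked higher at 10 days, 55545 bp for those ranked higher at 5 days and 51452 bp for all pairs. The gap between the medians of the 2 directions depended on the pairing. Where an overlap of at least 200 bp was required, they were 46123 bp towards 10 days and 56542 bp towards 5 days. Peaks within about 1 kb of each other can share sequenced fragments, and close pairs in general need not be separate measurements.

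**Figure D2:**
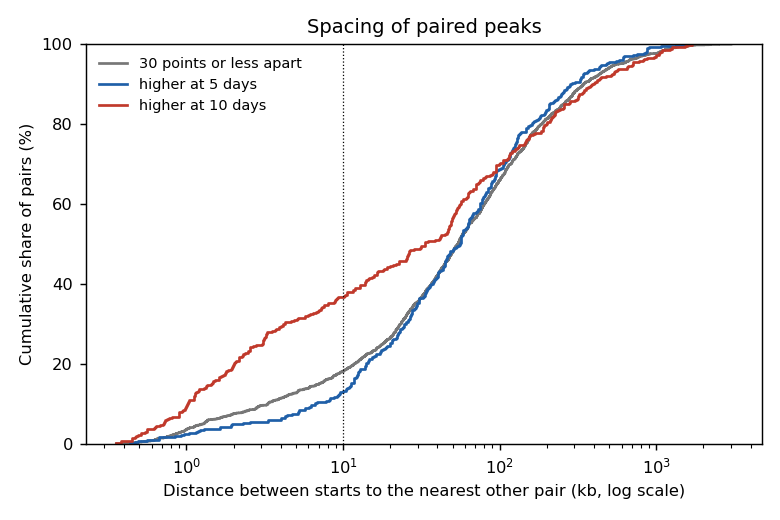
Cumulative share of pairs (vertical, %) by distance from their start to the start of the nearest other pair (horizontal, kb, log scale), for the 3 kinds of pair. At 10 kb (dotted line) the red curve of pairs ranked higher at 10 days stands at 36.8%, above 13.1% for pairs ranked higher at 5 days and 18.1% for the others; the curves meet near 100 kb.

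Peaks of a single list went the same way. These counts are not separate from the spacing of pairs, since a neighbouring pair adds a peak to each list. A second peak of the 10 day list, paired or not, started within 1 kb of 20.5% of the pairs ranked higher at 10 days (16.4 to 25.1), of 6.69% of those ranked higher at 5 days (4.33 to 9.78) and of 9.60% of all pairs. For a second 5 day peak the shares were 16.5% (12.8 to 20.8), 4.18% (2.36 to 6.80) and 7.56%. Where the rank was higher at 10 days, the median offset between the starts of the 2 peaks of a pair was 43 bp (quartiles 17.5 and 86.5), and where it was higher at 5 days it was 32 bp (12 and 58). For pairs with no other pair within 10 kb these medians were 40 and 32.5 bp. Overlap was under 200 bp in 18 of the 351 pairs (5.13%, 3.07 to 7.98), in 45 of the 2122 others (2.12%, 1.55 to 2.83), and in 0 of the 359 pairs ranked higher at 5 days, which allows a share of up to 0.836% counted as 3 pairs and 1.02% as the exact upper limit. Whether neighbouring peaks that were split or merged differently in the 2 lists took part in the rank shifts was not tested.

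Over all chromosomes, larger groups of close pairs held larger shares shifted towards 10 days and smaller shares shifted towards 5 days. Pairs were linked into groups wherever consecutive starts lay at most 10 kb apart, a distance chosen after the data were seen. Of the 2271 pairs standing alone, 9.78% ranked higher at 10 days (8.58 to 11.1) and 13.7% higher at 5 days (12.3 to 15.2). In groups of 2 the shares were 14.8% (11.3 to 18.9) and 11.5% (8.35 to 15.2), and in groups of 3 they were 21.8% (13.2 to 32.6) and 6.41% (2.11 to 14.3). In groups of 4 or more, 59 of 125 pairs ranked higher at 10 days (47.2%, 38.2 to 56.3) and 1 ranked higher at 5 days (0.800%, 0.0203 to 4.38). Outside Z, the corresponding counts were 39 and 1 of 80 pairs. Restricted to pairs whose mean rank allows a shift, 59.0% of the pairs in groups of 4 or more ranked higher at 10 days (48.7 to 68.7), against 12.2% of the lone pairs (10.7 to 13.8). Every shifted pair meets this restriction by construction, so it removes only pairs that did not shift, and both shares could only rise.

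The chromosome classes did not all follow this. Comparing pairs that had another pair within 10 kb with lone pairs, the share ranked higher at 10 days was 25.5% against 9.59% on macrochromosomes (1 to 5), 21.3% against 8.68% on microchromosomes (11 to 28) and 41.5% against 22.4% on Z, but 7.78% (3.18 to 15.4) against 9.25% on intermediate chromosomes (6 to 10). The share ranked higher at 5 days was 2.94% (1.09 to 6.29) against 13.9% on macrochromosomes, whereas it was 13.3% against 13.1% on intermediate chromosomes and 13.4% against 14.6% on microchromosomes. On Z it was 3.08% (0.375 to 10.7) against 8.16%. Differences between the classes were not tested.

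**Figure D3:**
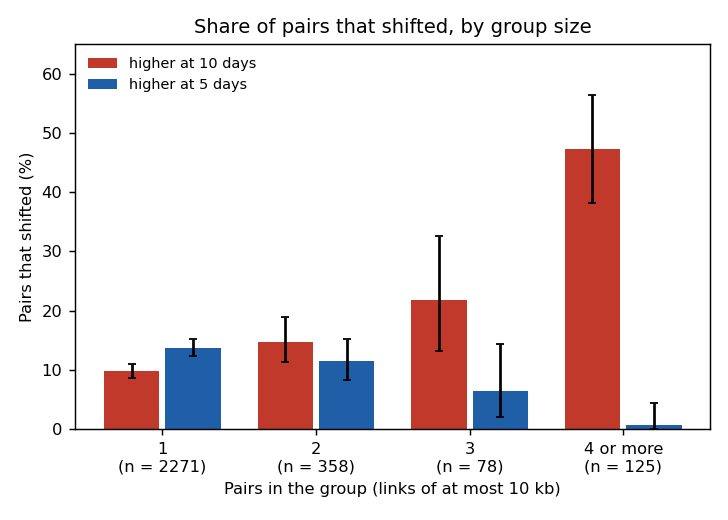
Share of pairs that shifted rank (vertical, %), by the number of pairs in the group they belong to (horizontal; links of at most 10 kb), with exact 95% binomial intervals as error bars. Red bars, higher at 10 days, climb from 9.78% for lone pairs to 47.2% in groups of 4 or more; blue bars, higher at 5 days, drop from 13.7% to 0.800%.

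There were 19 groups of 4 or more pairs, on 9 chromosomes, and 7 of them were on Z. Each held at least 1 pair that ranked higher at 10 days, and 13 held at least 3. The median rank difference was above 0 in all 19, from 3.46 to 63.3 points, and 106 of the 125 pairs had a positive difference. The medians and the 106 pairs include the 59 that were chosen for a difference above 30 points and are positive by that rule. As 106 exceeds 59, positive differences also occurred among the 65 pairs of these groups within 30 points. Medians of those 65 pairs alone were not computed.

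The most strongly shifted group was on chromosome 25 from 705878 to 719841, a stretch of 13964 bp. Its first 5 pairs all ranked higher at 10 days, with 5 day scores of 16 to 26 and 10 day scores of 76 to 162, and formed the longest run of neighbouring pairs that shifted the same way. The sixth pair, at 719443, scored 54 and 41 and ranked higher at 5 days (-33.1 points), the 1 exception among all pairs in such groups. Before this group the pair at 688272 scored 26 and 170, and its neighbours at 687226 and 690780 scored 62 and 249, and 60 and 198. Those 2 stood high at both ages and shifted by 10.9 and 12.0 points. From 687226 to 719841, 6 of 9 pairs ranked higher at 10 days.

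Chromosome 12 had a pair of such groups. From 2159522 to 2164128, a stretch of 4607 bp, all 4 pairs ranked higher at 10 days, with 5 day scores of 16 to 29 and 10 day scores of 40 to 79. From 2566618 to 2574765, 3 of 5 pairs did, and the median difference was 56.1 points. The 1 Mb window that holds both, from 2000001 to 3000000, had 7 pairs ranked higher at 10 days and 1 ranked higher at 5 days among 16, as many of the first kind as any window.

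On chromosome 1 the group from 2636273 to 2647332 had a median difference of 48.2 points, with 5 day scores of 13 to 20 and 10 day scores of 28 to 79. The group from 119094345 to 119104676 had 3 of 4 pairs ranked higher at 10 days. The longest group, with 25 pairs from 104454970 to 104504677, shifted less: 5 pairs passed the limit, and the median difference was 10.0 points. Its median scores were 57 at 5 days and 191 at 10 days. Whether the upper end of the percentile scale limited the shifts of its pairs was not tested.

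Elsewhere, the group on chromosome 5 from 57493848 to 57507963 had 4 of 7 pairs ranked higher at 10 days, the group on chromosome 14 from 15593562 to 15600327 had 3 of 4, and that on chromosome 2 from 31023972 to 31044904 had 3 of 6. On chromosome 11 from 2674272 to 2687838, 2 of 6 did. There the 5 day list held 16 peaks and the 10 day list 6. Whether the number of peaks took part in the rank shifts was not tested. Over the 19 groups the 5 day list held 163 peaks and the 10 day list 160, paired or not. The 125 pairs of these groups put peaks into both totals, so the totals are alike in large part by construction. They cannot be set against the lengths of the lists, 20211 peaks at 10 days and 5120 at 5 days.

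**Figure D4:**
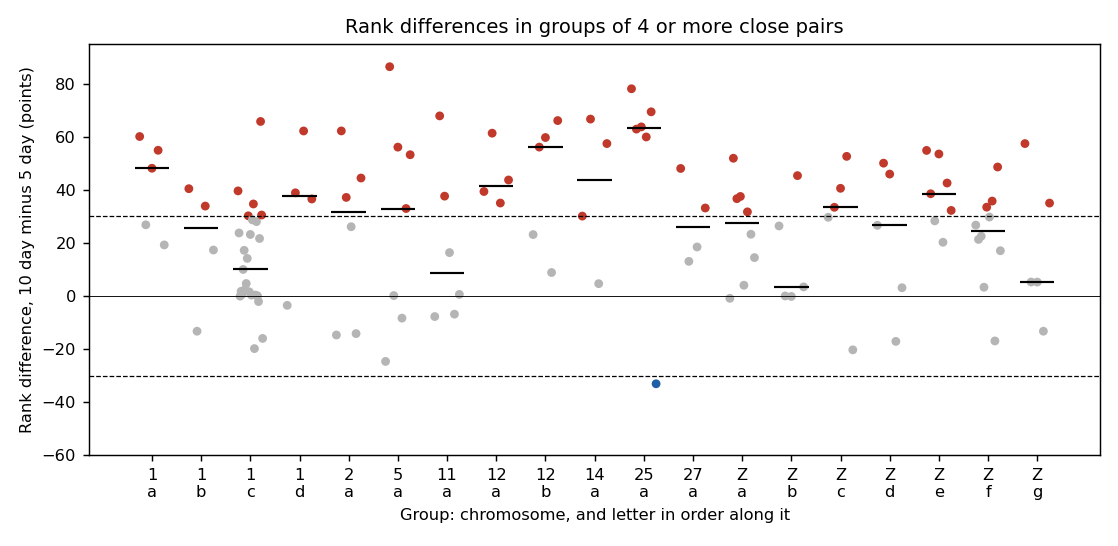
Rank difference of each pair, 10 day minus 5 day (vertical, points), in the 19 groups of 4 or more pairs (horizontal; chromosome number and a letter in order along it). Red dots rank higher at 10 days, the blue dot higher at 5 days, grey dots lie within 30 points (dashed lines), and bars mark group medians, all of which are above 0.

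Z stood out among the chromosomes for shifts towards 10 days. Of its 163 pairs, 49 ranked higher at 10 days (30.1%, 95% interval 23.1 to 37.7) and 10 ranked higher at 5 days (6.13%, 2.98 to 10.99). On all other chromosomes together the shares were 11.3% (10.1 to 12.6) and 13.1% (11.8 to 14.4). Z thus held 14.0% of the pairs ranked higher at 10 days (10.5 to 18.0), 2.79% of those ranked higher at 5 days (1.34 to 5.06) and 5.76% of all pairs. Over all Z pairs, the shifted ones included, the median rank difference was 13.3 points. The medians were 1.01 for macrochromosomes, 0 for the intermediate class and -1.31 for microchromosomes. Pairs chosen on this same difference enter these medians. Whether the Z pairs within 30 points also leaned towards 10 days was not tested.

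Close groups on Z gave part of this, and lone pairs showed it too. The 7 groups of 4 or more on Z held 20 of its 49 pairs ranked higher at 10 days. With these groups left out, 29 of 118 Z pairs ranked higher at 10 days (24.6%, 17.1 to 33.4). Among Z pairs with no other pair within 10 kb the share was 22 of 98 (22.4%, 14.6 to 32.0), against 9.59% of such pairs on macrochromosomes (7.84 to 11.6) and 8.68% on microchromosomes (6.81 to 10.9).

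Along Z the shifted pairs were spread out. In bins of 10 Mb from 0 to 80 Mb, the pairs ranked higher at 10 days numbered 7, 5, 3, 5, 4, 10, 13 and 2, of 24, 19, 20, 16, 13, 27, 32 and 12 pairs. Up to 50 Mb, a boundary chosen after the data were seen, 24 of 92 pairs ranked higher at 10 days and 9 higher at 5 days, and beyond it 25 of 71 and 1. The group from 63888623 to 63897022 had 5 of 7 pairs ranked higher at 10 days, the most of any Z group, with a median score of 28 at 5 days and 97 at 10 days. Of the 10 Z pairs ranked higher at 5 days, that at 45098654 shifted furthest (scores 38 and 22, -59.5 points), and that at 34283613 had the highest 5 day score.

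The sex of the animals is not given in the labels. Unplaced W sequence held 4 of 21358 peaks at 10 days, a share below the 0.0515% that 0 of 5830 peaks at 5 days allows, so no difference between the lists was detectable there. The part of sex chromosome number in the Z ranks was not tested.

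Among the autosomes the widest departure was on chromosome 25, a microchromosome. Of its 22 pairs, 10 ranked higher at 10 days (45.5%, 24.4 to 67.8) and 2 ranked higher at 5 days (9.09%, 1.12 to 29.2). Of the 10 pairs, 6 came from the stretch of 32616 bp described above. The other 4 were at 1338, 1162749, 1842554 and 1896997, with 5 day scores of 13, 17, 15 and 15 and 10 day scores of 35, 60, 40 and 43.

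Chromosomes 22, 27 and 28 also had higher shares towards 10 days, at 6 of 26 pairs (23.1%, 8.97 to 43.6), 7 of 35 (8.44 to 36.9) and 9 of 40 (22.5%, 10.8 to 38.5), with intervals that include the background of 12.4%. Several chromosomes leaned the other way, among them 8 (7 pairs ranked higher at 10 days and 16 higher at 5 days), 19 (5 and 14), 23 and 24. On chromosome 23, 1 of 50 pairs ranked higher at 10 days (2.00%, 0.0506 to 10.6) and 8 higher at 5 days (16.0%, 7.17 to 29.1). On chromosome 24, 1 of 31 ranked higher at 10 days (3.23%, 0.0816 to 16.7) and 8 higher at 5 days (25.8%, 11.9 to 44.6). Apart from the share of chromosome 23 towards 10 days, the intervals of 23 and 24 include the background. These chromosomes were picked from 28 for their values, and the intervals make no allowance for that.

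**Figure D5:**
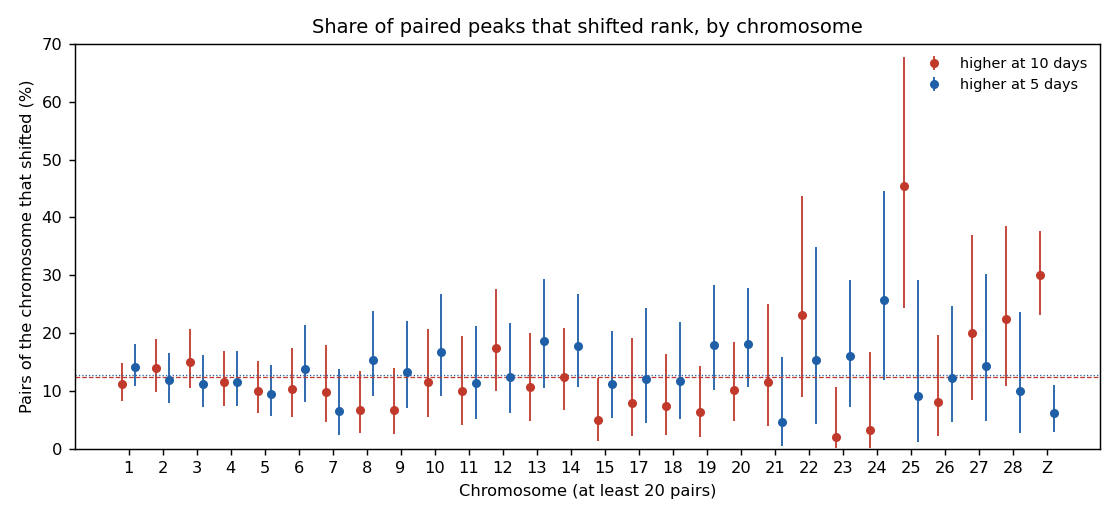
Share of the pairs of each chromosome that shifted rank (vertical, %), for the 28 chromosomes with at least 20 pairs (horizontal), with exact 95% binomial intervals; the 2 horizontal lines mark the shares over all pairs, 12.4% and 12.7%. Z and chromosome 25 stand above the line for shifts towards 10 days (red), at 30.1% and 45.5%.

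With Z left out of the counts, macrochromosomes held 49.0% of the pairs ranked higher at 10 days (43.2 to 54.8), 41.5% of those ranked higher at 5 days (36.3 to 46.9) and 45.1% of all pairs. Microchromosomes held 36.8% (31.3 to 42.5) and 40.4% (35.2 to 45.8), with 36.9% of all pairs. Intermediate chromosomes held 14.2% (10.5 to 18.7) and 18.1% (14.2 to 22.5), with 17.9% of all pairs. With Z left out, a step chosen after the data were seen, each interval includes the share over all pairs. With Z kept, intermediate chromosomes held 12.3% of the pairs ranked higher at 10 days (9.01 to 16.1), below the 16.9% of all pairs. They held 17.5% of those ranked higher at 5 days (13.8 to 21.9). Microchromosomes then held 31.6% (26.8 to 36.8) and 39.3% (34.2 to 44.5), against 34.8%. Macrochromosomes held 42.2% (36.9 to 47.5) and 40.4% (35.3 to 45.7), against 42.5%. Of the 28 chromosomes with at least 20 pairs, 16 had more pairs ranked higher at 5 days, 11 had more ranked higher at 10 days and 1 had as many of each. Near the ends of the peak map the kinds were alike: 13.1% of the pairs ranked higher at 10 days (9.76 to 17.1), 14.2% of those ranked higher at 5 days (10.8 to 18.3) and 13.9% of all pairs lay within 1 Mb of the outermost peak of their chromosome. The median distance to that peak was 9076436 bp for pairs ranked higher at 10 days and 6000959 bp for those ranked higher at 5 days. Over all pairs it was 7753767 bp. These medians make no allowance for chromosome length.

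Nearest pairs shifted the same way more often than the background share in both directions, when ranked among the pairs. The nearest pair of a pair ranked higher at 10 days also ranked higher at 10 days in 74 of 351 cases (21.1%, 16.9 to 25.7), against a background of 12.4%. For pairs ranked higher at 5 days, 63 of 359 nearest pairs did the same (17.5%, 13.8 to 21.9), against 12.7%. Opposite shifts were nearest neighbours in 9.12% and 9.19% of cases. Where the nearest pair lay within 10 kb, the share towards 10 days was 28.7% (21.1 to 37.3), with the share of all such pairs, 23.0%, inside the interval, and towards 5 days it was 19.1% (9.15 to 33.3), against 8.38%. Where it lay beyond 10 kb, the shares were 16.7% (12.0 to 22.2) towards 10 days, against 9.78% of all such pairs, and 17.3% (13.3 to 21.97) towards 5 days, against 13.7%, a background just inside the interval. The nearest pair of a pair ranked higher at 10 days had a median rank difference of 6.32 points, and that of a pair ranked higher at 5 days one of -3.32 points, where the nearest pairs over all pairs had 0.159. With ranks over every peak of each list the direction turned towards 5 days, where 1 of 112 nearest pairs did the same (0.893%), against 3.95% of all pairs. Mutual nearest pairs enter these counts from both sides.

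Runs of neighbouring pairs that shifted the same way were mostly short. Towards 10 days 119 pairs lay in 50 runs of 2 or more, and towards 5 days 110 pairs in 51 runs. The scale of the runs differed. Behind the chromosome 25 run of 5, there were 4 runs of 4 pairs towards 10 days. The run on chromosome 12 spanned 4607 bp, while that on chromosome 2 from 83123452 to 91440879 spanned 8317428 bp, across which the 4 pairs were the only ones. The single run of 4 pairs towards 5 days, on chromosome 6 from 12526594 to 12982922, spanned 456329 bp, with 5 day scores of 27 to 64 and 10 day scores of 22 to 30. The next, of 3 pairs each, were on chromosome 1 from 51780147 to 52733191 and on chromosome 8 from 4186246 to 4611762.

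Over windows of 1 Mb the pairs ranked higher at 5 days gathered most on chromosome 19 from 6000001 to 7000000, where 6 of 21 pairs ranked higher at 5 days and 0 ranked higher at 10 days. Their 5 day scores were 43, 68, 46, 39, 62 and 57 and their 10 day scores 33, 47, 37, 22, 29 and 27, in order along the chromosome from 6149412 to 6817043. The chromosome 6 window from 12000001 to 13000000 had 4 of 6, and the chromosome 14 window from 6000001 to 7000000 had 4 of 15, with 1 that ranked higher at 10 days. Towards 10 days, the chromosome 25 window from 1 to 1000000 had 7 of 14, level with that on chromosome 12, and the chromosome 1 window from 104000001 to 105000000 had 6 of 26.

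Peaks found at 1 age only lay around both kinds of pair, as they did around all pairs. Within 50 kb on each side, a mean of 2.35 unmatched 10 day peaks lay around pairs ranked higher at 10 days, 1.94 around those ranked higher at 5 days and 2.05 around all pairs. With groups of 4 or more left out, the first 2 values were 2.01 and 1.94. For unmatched 5 day peaks the means were 0.724, 0.599 and 0.597. The order turned with those groups left out, to 0.445 around pairs ranked higher at 10 days and 0.601 around those ranked higher at 5 days. It also turned with all groups kept when 100 kb on each side was taken, to 1.03 and 1.15, with 1.04 around all pairs. Without the groups, at least 1 unmatched 5 day peak lay within 50 kb of 31.5% of the former (26.2 to 37.2) and 39.9% of the latter (34.8 to 45.2), with intervals that overlap. Over all pairs, groups kept, the share was 37.3%. With all groups kept, at least 1 unmatched 10 day peak lay within 50 kb of 80.6% of the pairs ranked higher at 10 days (76.1 to 84.6) and of 78.3% of those ranked higher at 5 days (73.6 to 82.4). Both intervals include the 79.5% of all pairs.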

How the data were processed

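CTCF peaks of chicken red blood cells came as 1 list per library, 5 day and 10 day, without a header. Each peak carries a deposited whole-number score in column 5, between 13 and 738 at 5 days and between 22 and 3381 at 10 days. What the score means, how reads were aligned, how peaks were called, against what control and on which genome build is not given in the sources used here. Depth is unknown. Every peak is 399 bp wide, and positions are printed with the first base counted as 1. No genome of the files' build was at hand, so no gene, motif or sequence is given.

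Pairs, percentile ranks (average rank for ties), nearest pairs by 5 day start, groups (links of at most 10 kb) and flanks (50 kb) were computed with Python 3.11.15, numpy 2.4.6, pandas 2.3.3 and scipy 1.17.1, and drawn with matplotlib 3.10.9. The functions were tested on simulated data. The members and the lists were chosen with earlier results of these data known. Pairs named in each direction are the 8 with the largest rank difference, the 5 with the highest score at the age of higher rank, the 2 on either side of the limit, the 3 longest runs and the 3 windows of 1 Mb with the most pairs, ties in chromosome order. Pairs and groups named otherwise were chosen after their values were seen.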

Additional observations from a re-analysis of the deposited data

Results flagged for a closer look

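The pairing rule left out unplaced and random sequence, the linkage groups and mitochondrial DNA, where a further 486 pairs of overlapping peaks lay. Ranked together with the rest, 3318 pairs in all, 109 of these 486 (22.4%) ranked more than 30 points higher at 10 days and 45 (9.26%) more than 30 points higher at 5 days. In that ranking 415 of the 3318 pairs, these included, ranked higher at 10 days and 415 higher at 5 days.

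The 10 day list held 4 peaks on unplaced W sequence, which was left out of the pairs, and the shorter 5 day list held 0. A count of 0 among 5830 peaks allows a larger share than 4 of 21358, so no difference between the ages was detectable.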

How the results depend on the processing

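Of 84 alternatives, 61 left the value within the 95% interval of the share, or within 1.5 times the count, distance or mean, and 23 moved it. Values are given first towards 10 days, then towards 5 days. A limit of 20 points gave 626 and 592 of the 2832 pairs, of which 31.6% and 28.0% had a nearest pair that shifted the same way. A limit of 40 points gave 176 and 207 pairs, with 14.2% and 10.6%. The counts follow from the limit, and the background of the neighbour shares changes with it. Towards 10 days that background was 22.1% of all pairs at 20 points and 6.21% at 40. Towards 5 days it was not computed. On Z, 44.2% of pairs ranked higher at 10 days at a limit of 20 points, against 22.1% of all pairs, and 16.6% against 6.21% at 40. Ranks over every peak of each list gave 823 and 112 pairs, Z shares of 9.48% and 5.36% and same-way neighbours of 33.3% and 0.893%; the median paired peak stood at the 92.3 percentile of the whole 10 day list and the 68.5 of the 5 day list, and 47.9% of Z pairs then ranked higher at 10 days, against 29.1% of all pairs. Ranks within each chromosome class, which set Z pairs against Z pairs, gave Z shares of 5.83% and 6.42% and a microchromosome share of 33.5% towards 5 days. The following were chosen after seeing the data. Without Z, the microchromosome share towards 10 days was 37.0%, against 36.9% of all pairs without Z. The share towards 10 days in groups of 4 or more was 12.1% without Z. Without those groups the Z share towards 10 days was 9.48%. For these last shares, the share over all pairs was not computed. Linking at 10 kb put 16.8% and 0.279% in such groups, against 4.41% of all pairs. Linking at 5 kb put 10.5% and 0%, against 3.14% of all pairs. At 20 kb the shares were 17.7% and 1.67%, against 5.76% of all pairs. No paired analysis was possible because there is a single library at either age, which also means that none could be dropped. Unknown depth and tied low scores limit the precision of every rank.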
